A study of Mus musculus with 267 samples.

Results

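Promoter regions were taken as the open chromatin regions that the HOMER annotation places at a transcription start (promoter-TSS). They numbered 54870 of 305626 regions in the 5 strain tables, with 12060 of 67742 for C57, 10802 of 54022 for BALB, 11459 of 68932 for NOD, 10598 of 60175 for PWK and 9951 of 54755 for SPRET. Chromatin immunoprecipitation with sequencing (ChIP-seq) had been performed in bone marrow-derived macrophages (BMDMs), grown from marrow in medium with macrophage colony-stimulating factor. The marrow donors were female mice 8 to 12 weeks old, without any engineered allele, of the inbred strains C57BL/6J, BALB/cJ, NOD/ShiLtJ, PWK/PhJ and SPRET/EiJ, shortened here to the first part of each name. Cells were left untreated (basal) or given 20 ng/mL interleukin-4 (IL-4) for 24 h. The 88 libraries used held H3K27ac, H3K4me3 and H3K4me2 with 2 libraries for each strain and condition, and RNA polymerase II (Pol II) with 2 to 4, which the labels call biological replicates. Each culture stands for 1 inbred strain, and the labels do not tie a library to an animal.

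A promoter is the stretch of DNA around a gene's start where Pol II assembles. H3K4me3 marks promoters that are in use, H3K4me2 marks promoters and enhancers, and H3K27ac marks those that are active. IL-4 signals through its receptor and the Janus kinases to the transcription factor STAT6, and macrophages respond with alternative activation, in which EGR2 and PPARg act later and PU.1 and C/EBPb belong to the basal macrophage programme. Promoters in mammals fall into those with CpG islands, common among broadly used genes, and those poor in CpG, common among tissue-specific and inducible genes.

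The promoter sequences below are those of 4 genes whose promoters gained marks with IL-4 and of 2 that lost them, shown so that the start sites behind the values can be read. Each runs from 250 bases before the RefSeq start to 30 bases after it, on the gene's strand, in GRCm38.p6, the assembly that the mm10 build of the deposited coordinates corresponds to. Capitals mark matches on either strand to the STAT motif TTCNNNGAA, its STAT6 form with 4 bases between TTC and GAA, the EGR motif GCGNGGGCG and the PU.1 motif GAGGAAGT. The sequences lie at chr7:38227965-38228244 on the minus strand (Plekhf1), chr9:107296409-107296688 on the plus strand (Cish), chr1:191098164-191098443 on the plus strand (Batf3), chr7:128129300-128129579 on the plus strand (Itgax), chr9:120068267-120068546 on the minus strand (Cx3cr1) and chr3:96293940-96294219 on the minus strand (Fcgr1).
Plekhf1: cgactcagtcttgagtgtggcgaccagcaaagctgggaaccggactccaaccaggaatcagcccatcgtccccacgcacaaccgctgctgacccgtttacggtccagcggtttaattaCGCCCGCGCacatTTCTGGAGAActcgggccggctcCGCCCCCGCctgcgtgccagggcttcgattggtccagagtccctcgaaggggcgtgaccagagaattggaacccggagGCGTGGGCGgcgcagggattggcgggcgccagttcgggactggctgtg
Cish: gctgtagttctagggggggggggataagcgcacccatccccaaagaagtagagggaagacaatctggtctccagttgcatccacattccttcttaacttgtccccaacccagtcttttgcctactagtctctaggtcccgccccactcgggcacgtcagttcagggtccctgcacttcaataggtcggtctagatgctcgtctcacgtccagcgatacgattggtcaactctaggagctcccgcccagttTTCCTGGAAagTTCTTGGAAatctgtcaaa
Batf3: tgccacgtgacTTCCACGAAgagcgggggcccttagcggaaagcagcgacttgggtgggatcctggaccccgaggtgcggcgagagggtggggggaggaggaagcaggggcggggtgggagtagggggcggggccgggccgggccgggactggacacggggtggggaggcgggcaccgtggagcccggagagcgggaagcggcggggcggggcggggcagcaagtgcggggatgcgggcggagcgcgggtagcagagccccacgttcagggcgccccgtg
Itgax: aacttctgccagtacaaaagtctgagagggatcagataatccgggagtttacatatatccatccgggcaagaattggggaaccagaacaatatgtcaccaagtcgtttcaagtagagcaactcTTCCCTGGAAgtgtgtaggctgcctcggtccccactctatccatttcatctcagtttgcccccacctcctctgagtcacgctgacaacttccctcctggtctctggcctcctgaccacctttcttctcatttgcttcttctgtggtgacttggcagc
Cx3cr1: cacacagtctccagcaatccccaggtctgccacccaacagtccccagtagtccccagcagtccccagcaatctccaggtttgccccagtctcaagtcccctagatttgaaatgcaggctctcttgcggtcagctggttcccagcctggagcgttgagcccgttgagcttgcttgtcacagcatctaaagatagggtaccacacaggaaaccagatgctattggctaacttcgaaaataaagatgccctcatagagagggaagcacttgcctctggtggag
Fcgr1: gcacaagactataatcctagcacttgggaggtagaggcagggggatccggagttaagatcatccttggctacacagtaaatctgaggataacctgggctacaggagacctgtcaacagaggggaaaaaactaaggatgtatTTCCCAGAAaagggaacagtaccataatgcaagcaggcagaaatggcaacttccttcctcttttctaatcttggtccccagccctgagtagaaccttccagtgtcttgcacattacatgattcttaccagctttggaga
The Plekhf1 promoter held the 4-spacer STAT6 motif from base -119 and EGR matches from bases -132, -96 and -18 relative to the start. In Cish the 3-spacer STAT motif began at bases 1 and 12. The Itgax window held the STAT6 motif at -127, Batf3 and Fcgr1 the STAT motif at -239 and -109, and Cx3cr1 none of the marked motifs. A match is a run of letters and was not tested as a binding site.

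Values are HOMER tags in 1000 bp around the region centre, scaled to 10000000 tags of the library total. Library totals ran from 4691644 to 21973750 tags, so that 1 normalized tag stood for 0.469 to 2.2 reads. The median promoter was covered by 334 to 831 reads of H3K4me3, 56.0 to 181 of H3K27ac, 46.5 to 256 of Pol II and 44.0 to 145 of H3K4me2, and counting error at single promoters is larger for the last 3. The cells carried the promoter set of macrophages: 10 of 10 macrophage markers had a promoter region in at least 1 strain table, against 1 of 7 T cell, 0 of 5 B cell, 3 of 4 dendritic cell, 1 of 5 neutrophil and progenitor, 1 of 5 stromal and 1 of 4 erythroid markers. Their summed H3K27ac was 2890 to 5221 tags basally and 1856 to 4160 tags at 24 h for the macrophage markers and 1.72 to 19.6 and 5.25 to 75.8 tags for the dendritic cell markers. The 1 T cell marker with a region, Cd28, reached 304 tags while Cd3e, Cd4 and Cd8a had none, and the neutrophil, stromal and erythroid sums did not exceed 13.4 tags. The H3K27ac libraries labelled replicate 2 at 24 h held 8.25% to 11.2% of their tags in promoters against 13.3% to 18.6% in replicate 1, lower in 5 of 5 strains. The basal replicate 2 libraries were lower in 3 of 5 strains (13.9% to 16.2% against 15% to 21.2% in replicate 1). The counts of H3K27ac calls and the list results are given with and without the replicate 2 libraries at 24 h. Fewer cells with a mark and less of the mark in each cell cannot be told apart in these bulk libraries.

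The promoter regions were alike in makeup across the strains. Between 99.7% and 99.8% of those with a RefSeq start lay within 1000 bp of it. Their CpG content was high. The median ratio of observed to expected CpG was 0.718 to 0.728 against 0.201 to 0.208 in intronic and intergenic regions of the same tables, called distal regions here. CpG-rich promoters (ratio of at least 0.6) made up 68.9% to 71.5% of promoters by strain and CpG-poor ones (under 0.4) 13.7% to 15.5%, where 88.9% to 90.7% of distal regions were CpG-poor. Promoters were also open in both conditions more often, at 72.2% to 83.8% against 47.4% to 61.5% of the other regions.

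All 4 marks stood higher at promoters than at distal regions before IL-4, and H3K4me3 set them apart most widely. Across the 10 basal libraries the median promoter held 341 to 445 tags of H3K4me3 and the median distal region 2.08 to 3.81. The difference in log2(tags + 1) was 6.66 ± 0.293 (SD, n = 10 libraries), or 101-fold, against 2.85 ± 0.265 (n = 15) for Pol II, 2.04 ± 0.325 (n = 10) for H3K27ac and 0.97 ± 0.163 (n = 10) for H3K4me2. Each was positive in every basal library. A two-sided exact sign-flip permutation test gave p = 0.00195 for each histone mark and 6.10e-05 for Pol II, the smallest it allows, with Benjamini-Hochberg adjusted p over the 4 marks of 0.00195 and 0.000244. Basal median promoter levels ran from 73.0 to 119 tags for H3K27ac, 54.7 to 129 for Pol II and 53.6 to 94.6 for H3K4me2, and these ranges overlapped those at 24 h (53.8 to 114, 59.6 to 168 and 33.7 to 71.3).

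**Figure D1:**
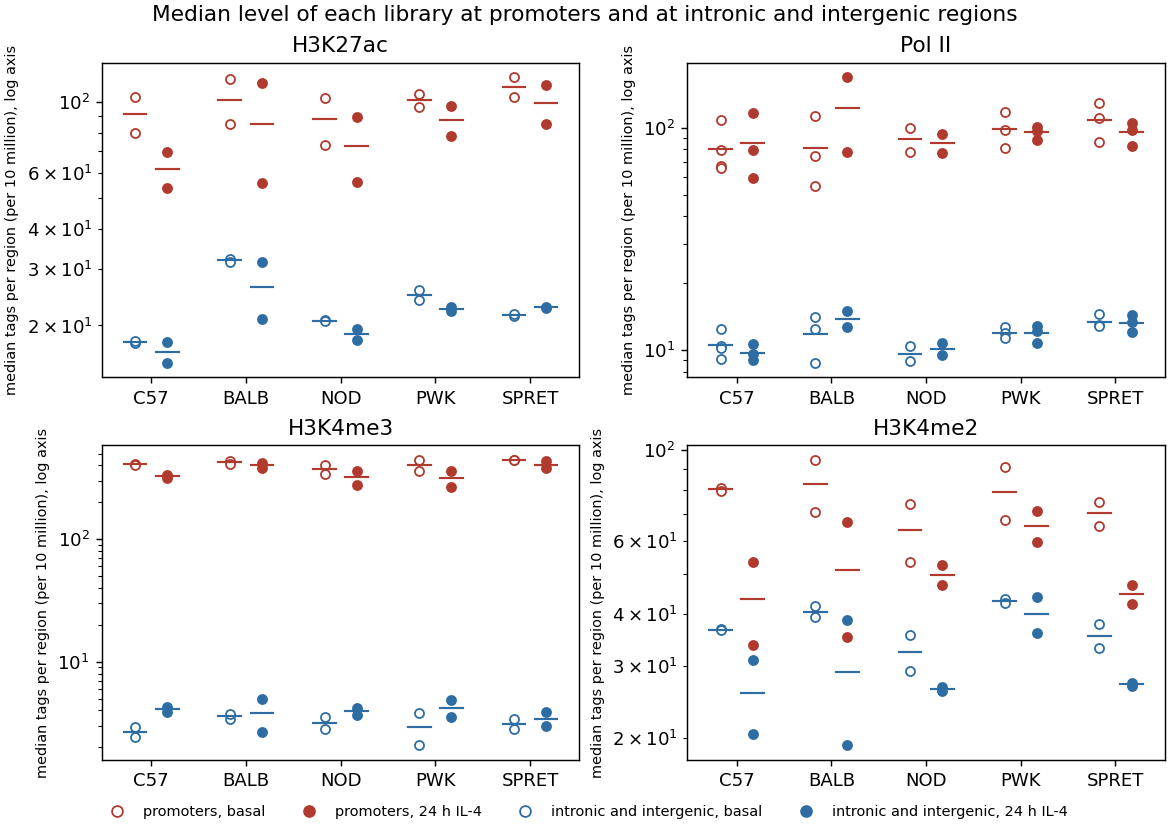
Median normalized tags per promoter region (log axis) in each library, by strain and mark, with open points for basal and filled points for 24 h IL-4 libraries and lines for group means. H3K4me3 medians lie between 269 and 445 tags and those of the other 3 marks between 33.7 and 168.

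CpG-rich promoters carried more H3K4me3 than CpG-poor ones. Their median H3K4me3 ran from 391 to 506 tags in basal libraries, against 45.9 to 67.9 tags at CpG-poor promoters, a difference in log2(tags + 1) of 2.76 to 3.38. For H3K4me2 the same difference ran from -0.18 to 0.08, so that both classes carried this mark at like levels. H3K27ac and Pol II lay between, at 0.29 to 0.98 and 0.93 to 1.68. With IL-4 the gap between the classes moved by 0.13 for Pol II (higher in 5 of 5 strains), 0.09 for H3K27ac, -0.05 for H3K4me3 and -0.02 for H3K4me2. None passed a two-sided permutation test of libraries within strains (adjusted p of 0.469, 0.497, 0.562 and 0.575). Over same-numbered pairs the Pol II gap was higher at 24 h in 11 of 13 pairs, and an exact sign-flip permutation over the pairs gave p = 0.0149, or 0.0596 adjusted over the 4 marks.

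Next the question was how promoters as a class moved with IL-4 relative to distal regions. H3K4me3 and H3K4me2 at promoters fell relative to distal regions, and H3K27ac and Pol II did not pass the test. The promoter minus distal difference moved by -0.48 ± 0.314 (SD, n = 5 strains) for H3K4me3 and -0.21 ± 0.122 for H3K4me2, both lower in 5 of 5 strains, with adjusted p = 0.0216 each in the exact permutation test of libraries within strains. The distal median of H3K4me3 is only a few tags, and with low regions left out the shifts were -0.11 (adjusted p = 0.166) and -0.14 (adjusted p = 0.0730), past the threshold for neither mark. H3K4me3 also missed it without BALB 24 h replicate 1 (-0.40, adjusted p = 0.0669), BALB basal replicate 1 (-0.46, 0.0535), PWK 24 h replicate 1 (-0.40, 0.0730) or PWK basal replicate 2 (-0.39, 0.0612). In the same permutation test the H3K27ac shift was -0.19 ± 0.176 (adjusted p = 0.166, or 0.0417 in the exact sign-flip permutation over same-numbered pairs, lower in 8 of 10 pairs) and for Pol II 0.04 ± 0.202 (adjusted p = 0.742), whose strains ran from -0.16 in SPRET to 0.32 in BALB.

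The response was then tested promoter by promoter. Regions matched within 500 bp across all 5 tables numbered 29462, of which 8011 were promoters in every strain, so that 66.4% of the C57 promoters entered. limma fitted log2(tags + 1) over all matched regions, and the contrast was the mean of the 5 strains' 24 h minus basal differences, with an adjusted p under 0.05 over all regions as a call. In Pol II, 244 promoters (3.05%) rose and 225 (2.81%) fell, against 7.5% and 7.2% of all regions tested. In H3K27ac, 195 (2.43%) rose and 1606 (20.0%) fell, against 7.29% and 28.2% of all regions. In H3K4me3, 58 (0.724%) rose and 1702 (21.2%) fell, against 3.98% and 10.0%, and in H3K4me2 10 (0.125%) rose and 7495 (93.6%) fell, against 1.76% and 72.2%. Among the 19163 distal regions the calls were 9.62% and 32.1% in H3K27ac, 9.54% and 9.24% in Pol II, 5.42% and 4.76% in H3K4me3 and 2.43% and 62.6% in H3K4me2, higher and lower in that order. A smaller share of promoters than of all regions was thus called higher in every mark, and a larger share was called lower in both H3K4 marks.

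The balance of rises and falls depended on the scaling. Scaled to the library total, the median log2 difference over all regions was -0.31 in H3K27ac, 0.02 in Pol II, -0.10 in H3K4me3 and -0.53 in H3K4me2, and over promoters -0.32, 0.07, -0.22 and -0.58. After median-ratio scaling over the regions, the promoter medians were -0.08, 0.04, -0.15 and -0.13. On that scale 442 promoters rose and 886 fell in H3K27ac (11.4% and 18.1% of all regions), 357 and 377 in Pol II (8.56% and 9.86%), 62 and 571 in H3K4me3 (3.68% and 4.13%), and 29 and 210 in H3K4me2 (4.24% and 2.49%). No promoter was called in opposite directions by the 2 scalings. Calls that held under both were 195 rises and 886 falls in H3K27ac, 240 and 223 in Pol II, 57 and 571 in H3K4me3, and 10 and 210 in H3K4me2. The promoters described below by name changed under both scalings unless stated.

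Same-numbered libraries deviated together in every pair of every mark, although 2 libraries a group give a single correlation within a strain and the labels tie no number to an animal or a batch. A replicate block, fitted as an alternative, gave 359 rises and 3652 falls in H3K27ac, 498 and 773 in Pol II, and 97 and 4932 in H3K4me3. Over all 29462 regions, of which the 8011 promoters are a part, it gave 3394 and 13418, 3224 and 4794, and 2347 and 7922. The share that fell in H3K27ac was thus alike at promoters and over all regions. In the histone marks the block took each region's spread from the trend over all regions, called the pooled spread here. The main fit in H3K4me2 did so too. With replicate 1 alone at 24 h, the H3K27ac counts were 191 rises and 474 falls (5.67% and 14.7% of all regions) and the median promoter difference was -0.00. Of these, 117 rises and 463 falls were also called with all libraries. That fit has fewer libraries and keeps both basal ones. Within same-numbered libraries the median promoter difference was -0.14 for replicate 1 and -0.50 for replicate 2. The 12 promoters named below for the largest changes in H3K27ac passed in the same direction with replicate 1 alone. The H3K27ac count was 3210 without BALB 24 h replicate 1. The H3K4me3 count, 1760 with all libraries, was 3794 to 5314 without PWK basal replicate 1, NOD 24 h replicate 1 or PWK 24 h replicate 2, and stayed within 1.5 times only without BALB 24 h replicate 2, NOD basal replicate 1 or SPRET 24 h replicate 1. Leaving out any of the other 14 lowered it to between 480 and 934.

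**Figure D2:**
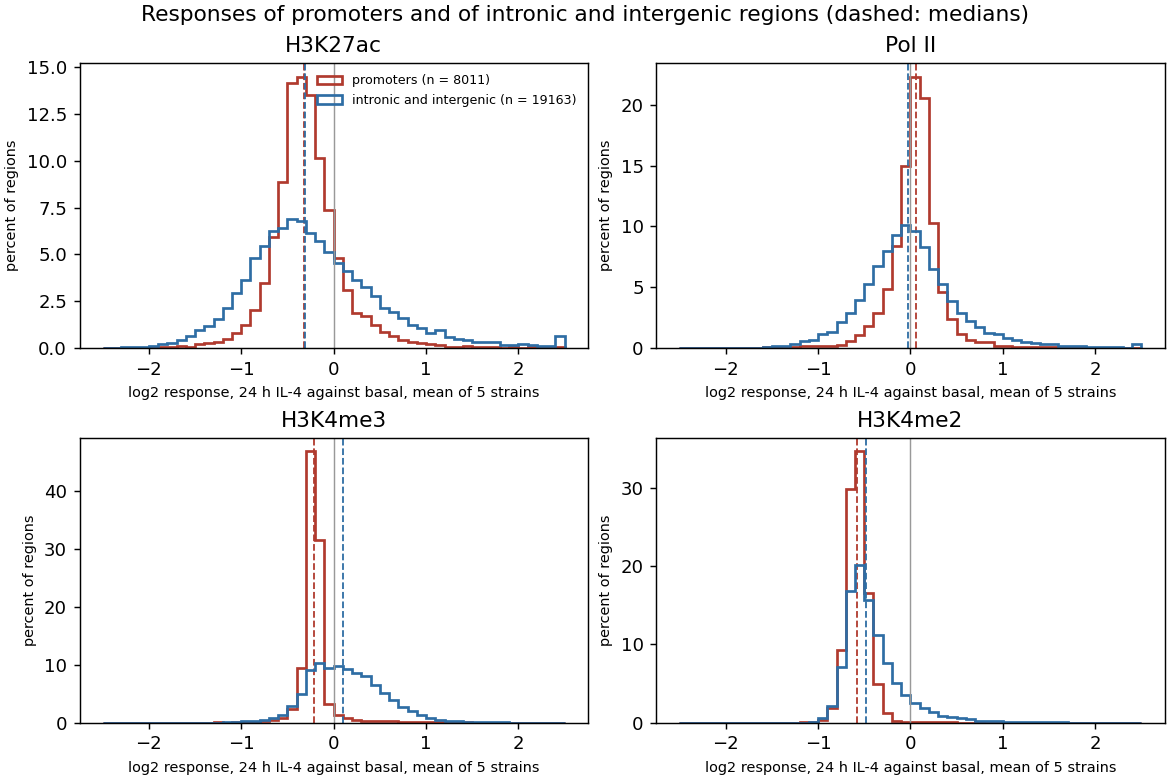
Histograms of the log2 difference of 24 h against basal (mean of 5 strains) at 8011 promoters and 19163 distal regions for each mark, as a share of each class; values beyond 2.5 in either direction are collected in the end bins and dashed lines mark the medians. Promoters span a narrower range than distal regions in each of the 4 marks.

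Promoter responses were narrow. The distance from the 5th to the 95th percentile of the log2 differences was 0.35 for H3K4me3 at promoters against 1.27 at distal regions, 0.38 against 0.99 for H3K4me2, 0.84 against 1.72 for Pol II and 1.23 against 2.34 for H3K27ac. It was narrower at promoters in each of the 5 strains and 4 marks. Distal regions hold fewer tags, and the part of counting error in their width was not tested.

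The promoters that rose most included those of a cytokine feedback inhibitor, a lectin, an integrin and a transcription factor. The largest rise in H3K27ac was at Gm6116, a predicted gene of unknown function (chr5:74948212-74949212). Its basal libraries held 0.60 to 20.5 tags of H3K27ac and its 24 h libraries 56.2 to 315. The log2 difference was 4.40 ± 0.22 (SE, adjusted p = 2.05e-10 in limma), and Pol II there went from 0 to 8.21 tags up to 14.1 to 57.1 (3.50 ± 0.24, adjusted p = 7.88e-12). H3K4me3 (2.13) and H3K4me2 (1.56) rose too, and Gm6116 was among the 10 promoters with a rise in H3K4me2. Its H3K4me3 stayed low, at 0 to 4.25 tags basally and 3.31 to 15.4 at 24 h. Across the libraries the median promoter held 269 to 445 tags of H3K4me3 and the median distal region 2.08 to 4.96.

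Plekhf1 encodes an endosomal protein with PH and FYVE domains, and its region (chr7:38227621-38228621) is centred 127 bp before the start printed above. Basal H3K27ac was 7.46 and 10.7 tags (C57), 10.3 and 6.55 (BALB), 14.1 and 3.97 (NOD), 15.4 and 50.1 (PWK) and 30.8 and 52.7 (SPRET). After IL-4 it was 104 and 150.3 tags for C57, 148 and 118 for BALB, 155 and 160.4 for NOD, 102 and 197 for PWK and 289 and 210.0 for SPRET. Every treated library stood above every untreated one, by 3.32 ± 0.25 on the log2 scale (limma adjusted p = 2.36e-08). Pol II rose by 2.10 ± 0.18 (adjusted p = 7.21e-10), with 15 to 87.6 tags basally and 79.5 to 255 tags after IL-4, and the groups were apart within each strain. H3K4me3 was at 199.6 to 306 tags before and 208 to 425 tags after IL-4, and H3K4me2 fell by 0.94. The H3K4me3 difference of 0.23 did not pass (adjusted p = 0.118, or 0.0296 with the pooled spread of the replicate block). EGR2 peaks overlapped the region in 5 of 5 strains in both conditions, and STAT6 peaks in 1 strain basally and 5 at 24 h.

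Cish, which encodes a SOCS family inhibitor of cytokine receptor signalling, had its region at chr9:107296173-107297173. Basal Pol II was 53.7, 32.9, 4.82 and 12.2 tags (C57), 21.7, 4.74 and 7.66 (BALB), 11 and 8.90 (NOD), 16.2, 16.1 and 6.82 (PWK) and 11.6, 2.28 and 5.13 (SPRET). After IL-4 Pol II was 109, 237 and 41 tags (C57), 151 and 72.2 (BALB), 72.9 and 55.3 (NOD), 146, 152 and 127 (PWK) and 87.9, 33.2 and 22.2 (SPRET). The groups did not overlap in BALB, NOD, PWK and SPRET and overlapped in C57, where the highest basal library held 53.7 tags and the lowest treated one 41. The log2 difference was 2.89 ± 0.32 (adjusted p = 8.61e-08), and H3K27ac rose by 2.66 ± 0.34 (adjusted p = 1.25e-05). H3K4me3 was already at 181 to 368 tags before IL-4 and differed by 0.14 (adjusted p = 0.344).

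Batf3 encodes an AP-1 family transcription factor, and the promoter at chr1:191097878-191098878 rose in H3K27ac by 2.33 ± 0.24 (adjusted p = 9.43e-07). Basal H3K27ac was 13.6 and 35.6 tags (C57), 23.5 and 31.0 (BALB), 17.5 and 15.1 (NOD), 17.2 and 21.9 (PWK) and 29.1 and 95.5 (SPRET). After IL-4 it was 138 and 139.8 tags for C57, 203 and 121 for BALB, 76.7 and 104 for NOD, 57.9 and 109 for PWK and 284 and 218 for SPRET. The groups were apart within each strain. Pol II rose by 1.91 ± 0.19 (adjusted p = 1.52e-08), H3K4me3 rose by 0.41 ± 0.13 from a basal 202 to 492 tags (adjusted p = 0.0327), and EGR2 peaks overlapped the region in 5 of 5 strains in both conditions.

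Itgax, which encodes the integrin CD11c, had little H3K4me3 before IL-4 in most strains and gained it. Basal H3K4me3 at chr7:128128929-128129929 was 2.18 and 5.85 tags (C57), 8.81 and 13.2 (BALB), 7.84 and 18.2 (NOD), 21.4 and 32.6 (PWK) and 61.1 and 87.8 (SPRET). After IL-4 it was 64.2 and 126 tags (C57), 66.1 and 84.4 (BALB), 46.3 and 115 (NOD), 81.4 and 112 (PWK) and 235 and 171 (SPRET). The groups did not overlap in any strain. The basal SPRET libraries stood within the range that the other strains reached after treatment, but strain levels come from tables counted apart. The rise was 2.54 ± 0.20 (limma adjusted p = 7.10e-10), the largest in H3K4me3 among promoters that moved the same way in 5 strains. The difference between strains did not pass the F test (adjusted p = 1.00). It passed with the replicate block (1.59e-07), whose pooled spread is not that of this promoter's own libraries. Pol II rose by 2.33 ± 0.21, and STAT6 peaks overlapped the region in 2 strains basally and 5 at 24 h.

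Mgl2, a C-type lectin of alternatively activated macrophages, gained H3K4me3 from a low level as well. H3K4me3 at chr11:70129601-70130601 was 1.39 to 14 tags over the basal libraries and 11.3 to 82.7 after IL-4 (2.2 ± 0.27, adjusted p = 1.68e-06). H3K27ac was 1.72 to 81.0 tags basally and 88.9 to 300.2 at 24 h, with no overlap over the 20 libraries (2.38 ± 0.33, adjusted p = 2.41e-05). Pol II rose by 2.90 ± 0.22 (adjusted p = 9.03e-11) and H3K4me2 differed by 0.00 on the deposited scale (adjusted p = 0.983) but rose by 0.45 on the median-ratio scale (adjusted p = 0.0117). Atp6v0d2, a subunit of the vacuolar proton pump, rose in all 4 marks, by 1.95 in H3K27ac, 2.29 in Pol II, 1.97 in H3K4me3 and 0.73 in H3K4me2.

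The remaining promoters among the 6 largest rises were those of Gpc1, a cell-surface proteoglycan (2.55 in H3K27ac and 2.23 in Pol II), and of 0610040F04Rik (2.39 in Pol II), whose counting window overlaps at its end that of Bhlhe40, a transcriptional repressor. Bhlhe40 rose by 1.00 in Pol II (adjusted p = 0.000124) while its H3K27ac differed by 0.12 (adjusted p = 0.731). Both were among the 3 largest falls in H3K4me2, by 1.38 at Bhlhe40 and by 1.34 at 0610040F04Rik. Klrb1a, a lectin-like receptor, and Bdh2, a dehydrogenase, completed the 3 largest rises in H3K4me2 at 1.00 and 0.97. At Bdh2, basal H3K27ac did not exceed 3.92 tags, H3K27ac rose by 1.19 (adjusted p = 0.00603, or 0.166 with replicate 1 alone at 24 h) and Pol II differed by 0.14 (adjusted p = 0.844).

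The promoters that fell most included those of several surface receptors of monocytes and macrophages, and Cx3cr1, the fractalkine receptor, led in all 4 marks. H3K27ac at chr9:120067794-120068794 was 62.4 and 189.7 tags for basal C57, 124 and 194 for BALB, 126 and 357 for NOD, 163 and 228 for PWK and 117 and 96.8 for SPRET. After IL-4 it was 4.24 and 21 tags (C57), 15.8 and 10.5 (BALB), 10.8 and 48.4 (NOD), 18.2 and 11.4 (PWK) and 11.5 and 22.6 (SPRET). No treated library reached the lowest untreated one, and the fall was -3.26 ± 0.32 (adjusted p = 5.75e-07). Pol II moved by -3.32 ± 0.29 (adjusted p = 1.20e-09), H3K4me3 by -2.95 ± 0.28 (adjusted p = 1.70e-08) and H3K4me2 by -1.70 ± 0.19 (adjusted p = 3.98e-16, with the pooled spread). STAT6 peaks overlapped the region in 4 strains basally and 2 at 24 h, PU.1 peaks in 5 in both conditions and EGR2 peaks in none.

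Fcgr1, the high-affinity receptor for IgG, fell from unequal levels. Basal H3K27ac at chr3:96293471-96294471 was 685 and 643 tags for C57, 317 and 533 for BALB, 226 and 545 for NOD, 87.5 and 224 for PWK and 8.55 and 24.4 for SPRET. After IL-4 it was 157 and 158 tags (C57), 79.8 and 111 (BALB), 73.8 and 127 (NOD), 17.5 and 31.5 (PWK) and 8.82 and 12.9 (SPRET). The groups were apart in 4 strains and overlapped in SPRET, where this promoter held few tags in either condition. The mean fall was -1.79 ± 0.25 in H3K27ac (adjusted p = 2.35e-05) and -1.65 ± 0.27 in Pol II (adjusted p = 5.45e-05). The difference between strains did not pass in limma (adjusted p = 1.00) but passed with the replicate block (adjusted p = 0.0121), and strain levels come from tables counted apart.

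Other large falls in H3K27ac were those of Cxcr3, a chemokine receptor (-1.97 ± 0.19), Siglece, an inhibitory sialic acid receptor (-1.88 ± 0.23), Lst1, a leukocyte transcript (-1.87 ± 0.19), and Cd300e, a myeloid receptor (-1.75 ± 0.24). All fell in Pol II as well, by 1.43, 2.09, 1.79 and 1.30. H3K4me3 fell by 1.63 at Lst1 and by 1.70 at Traf3ip3, a partner of the adaptor TRAF3, and differed by -0.43 at Cd300e (adjusted p = 0.322), where no library held more than 5.62 tags. F630028O10Rik (-1.63) and Slc40a1, the iron exporter ferroportin (-1.56), completed the 6 largest falls in Pol II. Of these 9 promoters that fell, Cx3cr1 and Fcgr1 included, all but Slc40a1 (0.662) lay at or below a CpG ratio of 0.257. Mgl2, Klrb1a, Pilra, Pilrb1 and the H2 genes have close relatives in the genome, and how reads that match more than 1 copy were assigned is not given in the sources used here.

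**Figure D3:**
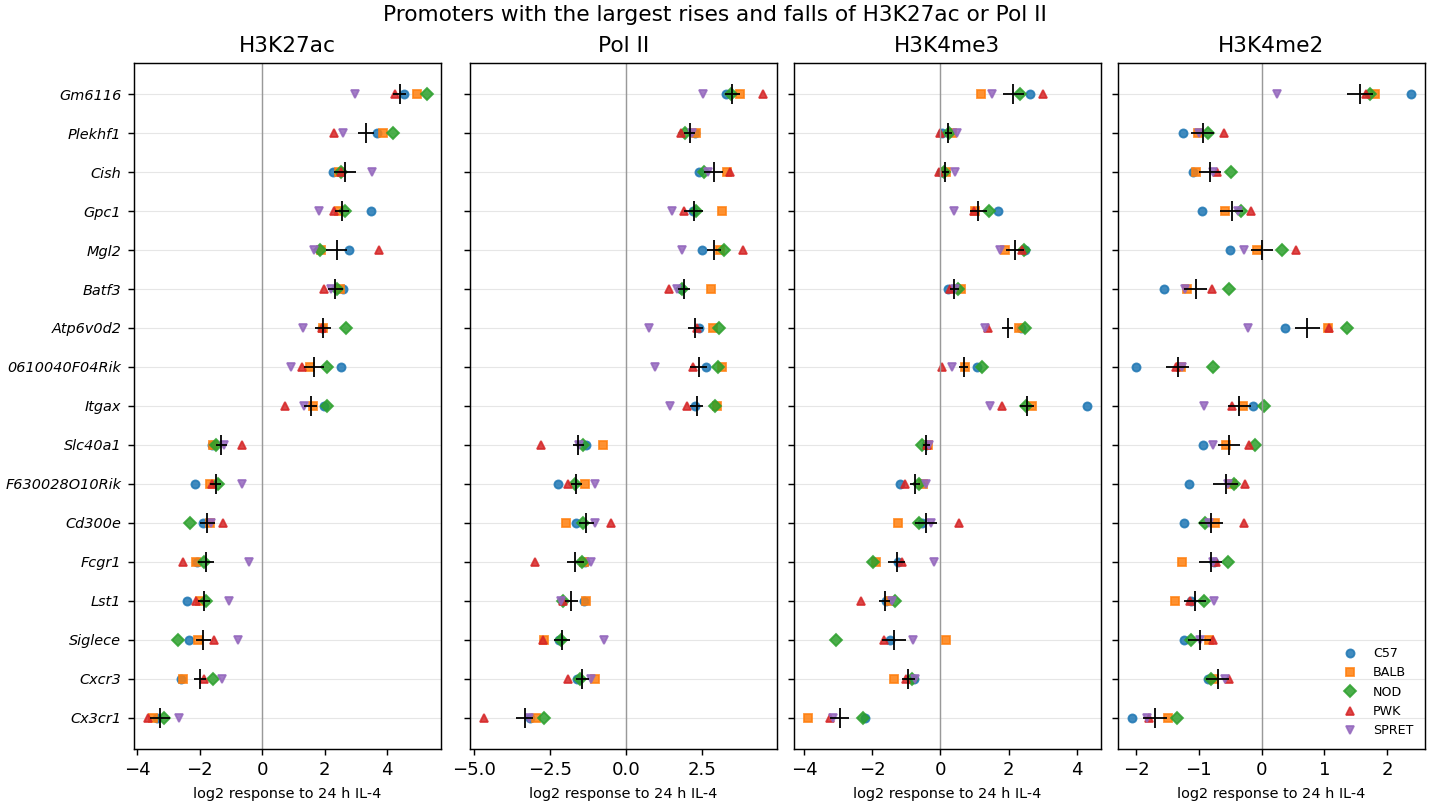
Log2 difference of 24 h against basal in the promoters with the largest rises and falls, for each mark; coloured points are the 5 strains and black ticks with bars their mean and its SE. Cx3cr1 lies lowest in all 4 marks, at -3.26 in H3K27ac and -3.32 in Pol II, and Gm6116 highest in H3K27ac and Pol II, at 4.40 and 3.50.

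H3K27ac and Pol II moved together at promoters. Of the 195 promoters with a rise in H3K27ac, 111 rose in Pol II (56.9%, or 45.5% of the 244 that rose in Pol II) and none fell. Of the 225 that fell in Pol II, 209 fell in H3K27ac (92.9%, or 13% of the 1606). Over all 8011 promoters, 244 rose and 225 fell in Pol II, and 1606 fell in H3K27ac. Of the Pol II calls, 116 rises and 165 falls were also called in H3K27ac with replicate 1 alone at 24 h. Across the 8011 promoters the log2 differences of the 2 marks had a Pearson r of 0.75, against 0.78 over distal regions. H3K4me2 did not follow. Its r with H3K27ac was 0.15 at promoters and 0.71 at distal regions, and with Pol II 0.07 and 0.46. Genes are not independent replicates and the marks share regions and strains, so that these values describe the promoters and carry no test.

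Rises in H3K4me3 were mostly at CpG-poor promoters. Of the 101 CpG-rich promoters with a rise in H3K27ac, 6 rose (5.94%) and 8 fell (7.92%) in H3K4me3, against 0.0992% and 22.5% of all 6048 CpG-rich promoters tested, and 98 (97.0%) fell in H3K4me2 against 94.6%. Of the 48 CpG-poor ones, 25 rose (52.1%) and 0 fell in H3K4me3, against 5.02% and 19.7% of all 837 CpG-poor ones, and 8 rose (16.7%) and 10 fell (20.8%) in H3K4me2, against 0.956% and 83.8%. With replicate 1 alone at 24 h, 24 of 41 CpG-poor and 6 of 123 CpG-rich promoters with a rise in H3K27ac rose in H3K4me3. With all libraries the median log2 difference in H3K4me3 was -0.11 at the CpG-rich and 0.68 at the CpG-poor promoters with a rise in H3K27ac, where all CpG-rich and CpG-poor promoters had medians of -0.22 and -0.17. Of the 58 promoters with a rise in H3K4me3, 42 (72.4%) were CpG-poor, and of the 10 with a rise in H3K4me2 8 (80.0%) were, against 10.4% of all promoters tested. Basal H3K4me3 at CpG-rich promoters is high, as given above, and the part of that level in their smaller differences was not tested.

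Promoters that fell in Pol II were also poor in CpG. Of the 225, 119 (52.9%) were CpG-poor and 58 (25.8%) CpG-rich. The 244 that rose were 28.7% CpG-poor and 52.9% CpG-rich, and the 8011 tested were 75.5% CpG-rich. The 1606 that fell in H3K27ac stood closer to all promoters, with 64.4% CpG-rich and 20.2% CpG-poor.

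**Figure D4:**
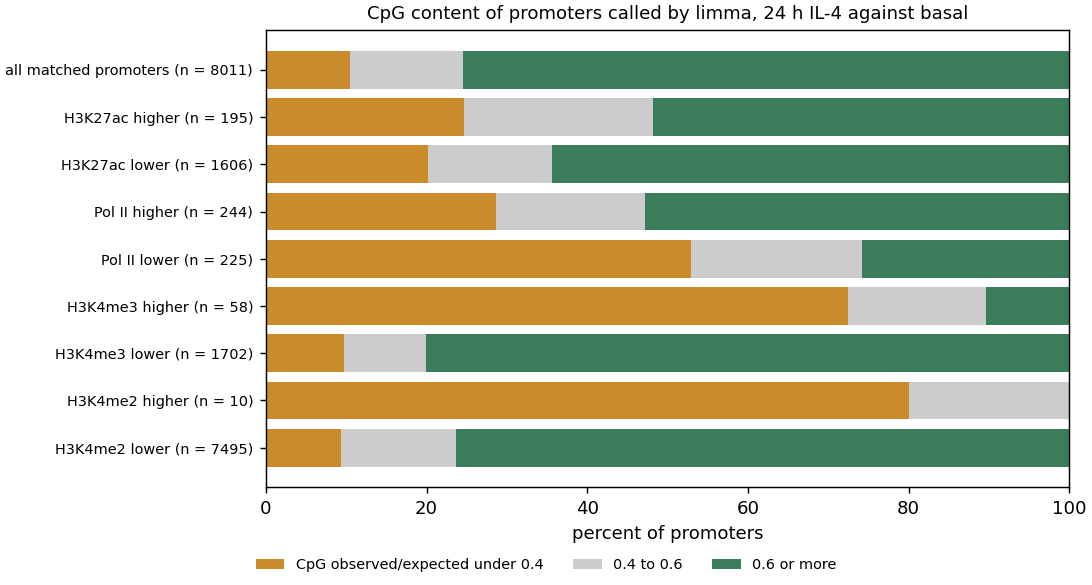
Percent of promoters that are CpG-rich (ratio of at least 0.6), intermediate (0.4 to 0.6) or CpG-poor (under 0.4), stacked, among all 8011 promoters tested and among those called higher or lower in each mark. The CpG-poor share is 10.4% of all promoters, 72.4% of those with a rise in H3K4me3 and 52.9% of those with a fall in Pol II.

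Gene lists were then read off the same calls. The list of alternative activation genes held 30 members, of which 11 had a promoter matched in 5 strains, and the others, among them Arg1, Retnla, Chil3, Ccl17 and Ccl22, were not tested. Of the 11, 9 rose in Pol II and 6 in H3K27ac, where 244 and 195 of all 8011 promoters did. None of the 11 fell in either mark, where 225 and 1606 of all 8011 promoters did. The median log2 difference was 1.34 in Pol II and 0.72 in H3K27ac, against 0.07 and -0.32 over all promoters. Rises in both marks were seen, among others, at Ccl24, an eosinophil chemokine (1.22 in H3K27ac and 1.64 in Pol II), Irf4, a transcription factor of alternative activation (1.51 and 1.78), and Pparg (0.72 and 0.52), besides Mgl2 and Batf3. At Irf4 the libraries of both marks overlapped in PWK and were apart in the other strains. At Pparg the H3K27ac libraries overlapped in C57 and SPRET and were apart in BALB, NOD and PWK. Mrc1, the mannose receptor, rose in Pol II (1.34) and H3K4me3 (0.81) but differed by 0.15 in H3K27ac (adjusted p = 0.556), and Myc rose in Pol II (1.02) while H3K27ac differed by 0.49 (adjusted p = 0.173). After median-ratio scaling Mrc1 (0.38), Myc (0.72) and Egr2 passed in H3K27ac too, which makes 9 of 11, where 442 of all 8011 promoters rose. With replicate 1 alone at 24 h 6 rose in H3K27ac, with Egr2 in place of Ccl24 (0.85, adjusted p = 0.215). Tgm2 and Klf4 passed in neither, at 0.50 and 0.21 in Pol II.

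Egr2 itself, the factor whose peaks are described below, rose in Pol II by 1.58 ± 0.15 (adjusted p = 5.29e-09). Its Pol II libraries held 67.0 to 170.3 tags in basal C57 and 322 to 421 after IL-4, 54.6 to 112 and 327 to 422 in BALB, 139 to 172 and 294 to 425 in NOD, 152 to 209 and 473 to 611 in PWK, and 182 to 262 and 399 to 679 in SPRET, apart in each strain. H3K27ac at Egr2 differed by 0.47 (adjusted p = 0.119), and passed with the pooled spread of the replicate block (adjusted p = 0.00560) and with median-ratio scaling (0.70, adjusted p = 0.00548). Egr3 fell by 1.28 in Pol II (adjusted p = 0.00544), with libraries apart in C57 and NOD and overlapping in the other strains. In BALB the mean Pol II at Egr3 was 5.49 tags basally and 7.855 at 24 h. Nab1 and Nab2, corepressors of EGR proteins, did not pass in Pol II (-0.31 and -0.15).

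In the list of IL-4 receptor signalling, 16 of 19 members were tested, of which 3 SOCS family inhibitors rose and 4 other members fell in H3K27ac, where 2.43% and 20.0% of all promoters did, so that the share that fell is near that of all promoters. Socs1 (1.88), Socs2 (2.00) and Cish (2.89) rose in Pol II, and the same 3 rose in H3K27ac. At Socs1 the H3K4me3 fell by 0.62 (adjusted p = 3.15e-05) while H3K27ac rose by 1.55. The receptor chain Il4ra (-0.85), Stat6 (-0.76), Stat5b (-0.72) and the phosphatase Ptpn6 (-1.11) fell in H3K27ac, and Ptpn6 and Stat5b fell in Pol II. With the replicate block 7 of the 16 fell in H3K27ac and 4 in Pol II, where 3652 and 773 of all 8011 promoters did. The share in H3K27ac is again near that of all promoters. With replicate 1 alone at 24 h the falls in H3K27ac were those of Stat6, Stat5b and Ptpn6, with Il4ra at -0.28 (adjusted p = 0.305), and Jak2 joined the 3 inhibitors among the rises. Jak1, Tyk2 and Stat3 passed in neither mark.

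Inflammatory and interferon promoters with a call mostly fell, and their shares are to be read against the 20.0% of all promoters that fell in H3K27ac and the 5 of 12 housekeeping promoters that did. With the replicate block 3652 of all 8011 promoters fell in H3K27ac, and 773 fell and 498 rose in Pol II. Of 18 inflammatory and NF-kB promoters tested of 28, 8 fell in H3K27ac and none rose, and 5 fell and 2 rose in Pol II (12 and 2 with the replicate block). The median was -0.58 in H3K27ac and -0.25 in Pol II. With replicate 1 alone at 24 h 4 fell in H3K27ac, Nfkbiz, Tlr2, Icam1 and Cx3cr1, and the median was -0.06. Tlr2, a receptor for bacterial lipoproteins, fell by 1.63 and 1.30 in the 2 marks, Nfkbiz, an inducible IkB protein, by 1.25 and 0.97, and the chemokine Ccl3 by 0.70 and 0.73. Ccl2 (1.40) and Tlr4 (0.38) rose in Pol II, with H3K27ac differing by 0.28 and -0.26. Cxcl10 fell in Pol II by 1.45 with H3K27ac at -0.43 (adjusted p = 0.406). Of 9 interferon promoters tested of 20, 4 fell in H3K27ac (6 with the replicate block), of which Mx2 alone did after median-ratio scaling, and Mx2 alone fell in Pol II (-0.78, adjusted p = 0.0247), with 3 falls under the replicate block. None of the 9 passed in H3K27ac with replicate 1 alone at 24 h, Mx2 standing at -0.81 (adjusted p = 0.0514).

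Of the 5 MHC class II promoters tested, none passed in H3K27ac on the deposited scale, 2 rose after median-ratio scaling, and 3 with the replicate block. Cd74, the invariant chain (1.10, adjusted p = 0.0301), and H2-DMb1 (0.72, adjusted p = 0.0187) rose in Pol II, and with the block all 5 did. Among 8 lineage factors tested, Maf (-1.16), Irf8 (-0.81) and Mef2a (-0.68) fell in H3K27ac, and Maf and Irf8 in Pol II, while Mitf passed in neither mark and Cebpa in H3K27ac only after median-ratio scaling (0.49, adjusted p = 0.0277). The other lists carried few calls in Pol II, where nuclear receptor and cholesterol genes had 2 rises (Pparg and Fabp4, a fatty acid carrier) of 13 tested, cell cycle genes 1 rise (Ccne1) of 18, lysosome genes 1 fall (Ctsd) of 11 and housekeeping genes none of 12. In H3K27ac these lists held 1 rise (Pparg) and 4 falls, 5 falls, 1 fall and 5 falls in the same order, and after median-ratio scaling 2 rises and 1 fall, 2 falls, 1 fall and 2 falls. These counts are to be read against those of all 8011 promoters. Of these, 244 rose and 225 fell in Pol II, and 195 rose and 1606 fell in H3K27ac (442 and 886 after median-ratio scaling). With the replicate block the falls in H3K27ac were 9, 12, 6 and 9 and those in Pol II 2, 1, 1 and 2, with 2 Pol II rises among lysosome genes, and of the lineage factors 5 fell in H3K27ac and 4 in Pol II. Under the block 359 of all 8011 promoters rose and 3652 fell in H3K27ac, and 498 and 773 in Pol II. The rise at Pparg was the only call among these 4 lists with replicate 1 alone at 24 h, and of the lineage factors Maf and Irf8 fell and Mef2a did not pass (-0.28, adjusted p = 0.153). The macrophage markers Cd14 (-1.40), Fcgr1, Mertk (-0.50) and Adgre1 (-0.50) fell in Pol II among 7 tested, and the dendritic cell marker Zbtb46, the only one of its list tested, rose by 1.03 (adjusted p = 0.0264). What share of cells these promoters come from was not tested.

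The response within single strains was described with the fold rule of the study's methods: at least 2.5-fold in both H3K27ac and Pol II, with at least 16 tags of H3K27ac and 8 of Pol II in either condition. Folds were taken here on group means of tags + 1, a pseudocount that the methods do not state, and pseudocount 5 gave 61 promoters in C57 in place of 100. In C57, 40 promoters were higher and 60 lower, against 0.936% and 1.14% of all regions in the table. The numbers were 43 and 14 for BALB (1.48% and 0.507% of all regions), 44 and 45 for NOD (1.29% and 0.807%), 44 and 27 for PWK (1.32% and 0.548%) and 33 and 6 for SPRET (0.873% and 0.221%). Promoters past the rule thus made up 0.332% to 0.415% (higher) and 0.0603% to 0.498% (lower) of promoters, below the share of all regions in each strain. Among the 8011 matched promoters, 51 were higher in at least 1 strain, of which 27 were in 1 strain and 12 in 4 or 5. For falls the numbers were 55, 35 and 5, and no promoter was higher in 1 strain and lower in another. In BALB 625 promoters were at least 2.5-fold higher in Pol II alone, against 50 to 91 in the other strains, and the median Pol II response of BALB promoters was 0.53 against -0.18 to 0.06. The median promoter held 168 tags in BALB Pol II 24 h replicate 1, the library of the lowest total. It held 77.8 in replicate 2, within the 54.7 to 113 of the basal BALB libraries. The part of replicate 1 in the 625 and in the 0.53 was not tested. Leaving out BALB Pol II 24 h replicate 1 moved the BALB count from 57 to 90.

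The largest rise that passed in each strain with libraries apart was at Mcf2l, a guanine nucleotide exchange factor, in C57 and NOD, at Msx3, a homeobox gene, in BALB, at Gm6116 in PWK and at Pdcd1lg2, the PD-1 ligand PD-L2, in SPRET. Mcf2l (chr8:12948887-12949887) held 0 and 0.710 tags of H3K27ac in basal C57 and 77.2 and 28.9 after IL-4, 1 read against 135, a ratio of 144 with an exact 95% interval of 25.4 to 5718. In NOD it held 0 tags in both basal libraries and 73.1 and 21.9 after IL-4. With 3 reads over the basal group taken as its floor, this is at least 36.4-fold higher. Msx3 (chr7:140048743-140049743) in BALB went from 1.47 and 0 to 68.5 and 40.0 tags, or 2 reads to 175 (ratio 77.6, interval 21.2 to 646). Pdcd1lg2 (chr19:29410363-29411363) in SPRET went from 12 and 5.93 to 249 and 61.4 tags (ratio 19.3, interval 12.6 to 30.8). The intervals cover counting error alone. The largest falls were at Pilra in C57 (54.3 and 48.5 to 3.40 and 1.97 tags), Pilrb1 in NOD (121 and 109 to 10.9 and 10.7) and Cx3cr1 in the other 3 strains. Pilra and Pilrb1 encode paired immunoglobulin-like receptors.

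Whether the IL-4 response differed between strains was tested with limma's F test over the 5 responses. No promoter passed in any mark (0.0% of all regions in H3K27ac, 0.0% in Pol II, 0.00339% in H3K4me3 and 0.0% in H3K4me2), and edgeR on recovered reads passed none either. At an unadjusted p under 0.05 limma counted 29 promoters in H3K27ac, 62 in Pol II, 47 in H3K4me3 and 19 in H3K4me2, and edgeR 30, 99, 49 and 18, of 8011. Without any strain difference a share of about 0.05 of the promoters would be counted, so that these fits were conservative. Their lack of calls does not show that the strains respond alike. With the replicate block 415, 448, 276 and 28 promoters had such an unadjusted p. After adjustment 74 promoters passed with the block in H3K27ac, 1 in Pol II, 28 in H3K4me3 and 0 in H3K4me2. Over all 29462 regions 549, 9, 71 and 1 passed. The smallest p in Pol II was at Cblb, an E3 ubiquitin ligase (unadjusted p = 0.00158, adjusted p = 1.00 in limma). Basal Pol II there was 185 to 238 tags for C57, 108 to 187 for BALB, 173 and 199 for NOD, 191 to 274 for PWK and 194 to 209 for SPRET. After IL-4 it was 328 to 431 tags (C57), 375 and 419.9 (BALB), 343 and 432 (NOD) and 282 to 401 (PWK), apart from basal in each, while SPRET held 135 to 194 and was not higher.

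B3galnt1, a glycosyltransferase, was among the 3 smallest p in H3K27ac (unadjusted p = 0.00842, adjusted p = 1.00, or 0.000385 with the pooled spread of the replicate block). It held 175 and 169.7 tags basally and 83.2 and 40.7 at 24 h in C57, and 27.5 and 38.4 basally and 72.1 and 66.8 at 24 h in PWK. The libraries were apart in opposite directions in these 2 strains. The others were Sox12 (unadjusted p = 0.00408), with no library above 11.2 tags, and Wnt11 (0.00510), with none above 5.91. In Pol II they were Shroom1 (0.00264), which held 7.22 to 17.2 tags in basal C57 and 0.670 to 4.10 at 24 h, and Csf3r, the G-CSF receptor (0.00628), which held 109.6 to 245 tags in basal SPRET and 66.4 to 147 at 24 h and 59.1 to 123 and 186 to 234 in BALB.

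Factor binding at promoters was read from the authors' peak lists, 1 per strain and condition. EGR2 peaks favoured promoters. On average over the 5 strains 49.2% of promoters overlapped an EGR2 peak basally and 62.5% at 24 h, against 15.9% and 26.7% of distal regions, and promoters stood above distal regions in 5 of 5 strains in both conditions. PPARg was at 12.3% and 26.3% of promoters (17.4% and 37.0% of distal regions), C/EBPb at 21.1% and 30.9% (30.3% and 44.2%) and PU.1 at 77.8% and 72.6% (73.9% and 74.5%). STAT6 covered 24.8% of promoters basally and 24.9% at 24 h, while its distal share was 32.8% and 45.1%, higher at 24 h in 5 of 5 strains. Each list stands for a group and has no replicate, and the mean number of peaks was higher at 24 h for all factors but PU.1. With the 2 lists of a strain held to equal length, the promoter share at 24 h was higher in 0 of 5 strains for every factor. The distal share was higher in 3 strains for EGR2, 4 for STAT6 and PPARg, and 5 for PU.1 and C/EBPb.

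**Figure D5:**
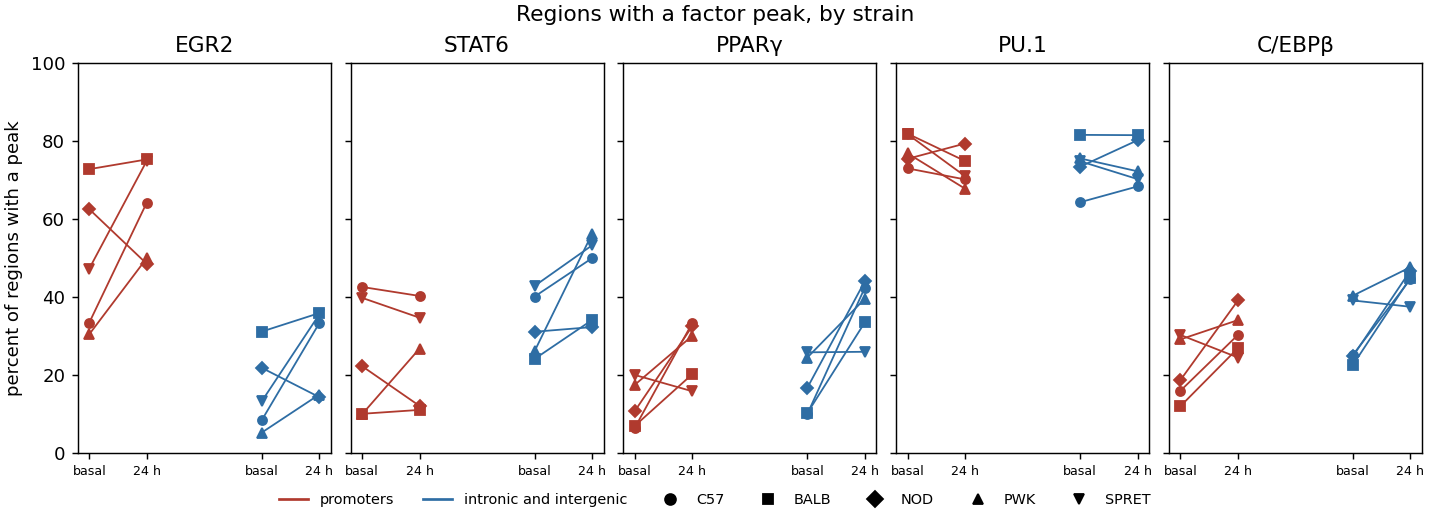
Percent of promoters and of distal regions that overlap a peak of each factor, basal and 24 h IL-4, with a line for each of the 5 strains. EGR2 peaks cover 48.5% to 75.3% of promoters and 14.2% to 35.8% of distal regions at 24 h, and the STAT6 promoter share is 24.8% basally and 24.9% at 24 h on average.

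Promoters that changed differed in the peaks over them. STAT6 peaks in at least 3 strains at 24 h covered 21.9% of the 8011 promoters, 45.9% of those that rose in Pol II, 49.3% of those that fell and 63.8% of those that rose in H3K4me3. Basal STAT6 peaks covered 20.3% of all promoters, 10.3% of those that rose in H3K27ac and 52.9% of those that fell in Pol II. PU.1 peaks covered 85% of promoters basally, 53.3% of those that rose in H3K27ac and 90.7% of those that fell in Pol II. EGR2 peaks at 24 h covered 69.2% of all promoters and 75.8% of those that rose in Pol II, but 52.0% of those that fell. The shares are descriptions, since CpG content differs between these sets as given above and its part was not tested.

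The letters of the promoters were searched over the 6417 of 8011 promoters whose gene had a RefSeq window, from 250 bases before to 50 after the start, on both strands. The STAT6 motif, TTC and GAA with 4 bases between them, occurred in 13.1% of the 84 windows whose promoters rose in H3K27ac and Pol II, 1.99% of the 151 that fell in both, 4.97% of the matched promoters and 6.95% of all 32851 RefSeq windows. The STAT motif TTCNNNGAA was at 5.95%, 5.96%, 6.31% and 8.30% in the same order. The EGR motif GCGNGGGCG, which can overlap the GC box GGGCGG, was at 11.9%, 5.96%, 11.7% and 5.55%, and the GC box at 63.1%, 49.0%, 71.8% and 35.7%. The PU.1 motif GAGGAAGT was at 4.76%, 10.6%, 3.77% and 3.20%, and the AP-1 motif TGANTCA at 13.1%, 8.61%, 4.71% and 7.81%. TATAAA was at 5.95%, 8.61%, 5.55% and 13.6%, CCAAT at 41.7%, 33.8%, 42.0% and 37.4%, the C/EBP motif TTGCGCAA at 0%, 0.662%, 0.296% and 0.183%, and the interferon-type motif, GAAA repeated after 2 bases, at 3.57%, 3.97%, 2.76% and 3.44%. Of the printed promoters, Plekhf1 and Itgax were among the 11 of 84 with the STAT6 motif.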

How the data were processed

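ChIP-seq signal was deposited as 1 table per strain, in which the authors counted HOMER tags in 1000 bp around each open region and, per the file headers, scaled every library to 10000000 tags. Per the study's methods, reads were mapped with Bowtie2 to the genome of their own strain and shifted to mm10, so that levels are compared within a strain. Peak lists of EGR2, STAT6, PPARg, PU.1 and C/EBPb carry a peak score in a deposited column, named idrScore for C/EBPb, PU.1, STAT6 and EGR2 in C57 and score for the others, and the authors called peaks per replicate and kept those that passed an irreproducibility filter, in 1 list per strain and condition. Other samples of the 267 in the series were not used here.

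Promoters were the regions annotated promoter-TSS, and distal regions those annotated intron or intergenic. Regions were matched to the C57 table within 500 bp. limma 3.58.1 (R 4.3.3, trended variance, strain by condition means) was fitted to log2(tags + 1) over all 29462 matched regions for each mark, with Benjamini-Hochberg adjustment over all of them, and adjusted p-values in the text come from it unless another test is named. Whole reads were recovered from 100% of 5377124 values within 0.1 read, and edgeR 4.0.16 (quasi-likelihood) on those reads was an alternative. Levels of promoters against distal regions were compared with exact sign-flip tests over basal libraries, and shifts with IL-4 with exact permutations of libraries within strains, all two-sided. In H3K4me2, and with the replicate block in each histone mark, limma's moderation took the spread of every region from the trend over all regions, so that the calls in those fits do not rest on each region's own spread. The fits were tested on simulated data, whose outcome is not given here. Other tools were Python 3.11.15, numpy 2.4.6, pandas 2.3.3, scipy 1.17.1 and matplotlib 3.10.9.

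Same-numbered libraries deviated together from their group means (r over promoters 0.110 to 0.656 across strains and marks), and a replicate block was fitted as an alternative. With 2 libraries a group, as in the histone marks, a strain gives a single correlation, and the pairing comes from the data and not from the labels. The 57 replicate pairs differed by more than counting noise (chi-square per degree of freedom 1.67 to 18.4), and none was counted as 1 sample. The labels name biological replicates, not animals, and p-values measure the spread between these libraries.

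Named genes were, among promoters past the threshold with the same sign in 5 strains, the 6 largest rises and falls in H3K27ac and in Pol II and the 3 largest in each H3K4 mark, besides the 3 smallest p between strains in H3K27ac and Pol II, the largest rise and fall of each strain by the fold rule, and up to 4 members of each list with the smallest p in H3K27ac. Further list members, among them Mrc1, Myc, Tgm2, Egr3, Jak1, Ccl2, Tlr4, Cxcl10, Cebpa, Fabp4, Zbtb46 and Cd28, were chosen after their values were seen. Some list members are not reported here by name. The members, lists and tests were chosen with earlier results of these data known. Alternatives were the scaling, a filter on low values, pseudocount 5, matching within 100 bp, edgeR, the block, each library left out and, chosen after seeing the data, H3K27ac with 24 h replicate 1 alone and exact sign flips over same-numbered pairs for the shifts.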

Additional observations from a re-analysis of the deposited data

Results flagged for a closer look

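Among 70 promoter and mark groups of 4 libraries, all of them C57 basal Pol II, 7 held 1 library far from the other 3 by Dixon's criterion, which chance meets in about 1 of 20 groups. Replicate 1 was high at Siglece (58.65 tags against 18.2 to 23.3), Atp6v0d2 (174.09 against 44.6 to 62.2) and Klrb1a (11.86 against 1.60 to 3.04). Replicate 2 was high at the MHC class II promoters H2-Aa (100.31 against 18.8 to 31.2) and H2-Eb1 (108.33 against 24.3 to 27.9). Replicate 3 was high at Actb (2144.3 against 1063 to 1228), and replicate 4 was low at Icam1 (64.81 against 116 to 124).

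Of 268 gene and mark pairs, 5 had libraries apart in opposite directions in a pair of strains, given here as ratios of mean tags + 1 at 24 h to basal. H3K27ac at B3galnt1 had a ratio of 2.08 in PWK and 0.363 in C57, at Sox12 4.79 in PWK, where both basal libraries held 0 tags, and 0.530 in C57, and at Ccne2 1.61 in BALB and 0.322 in C57. H3K4me3 at Csf3r had a ratio of 1.44 in BALB and 0.722 in PWK, and at Cd300e 1.43 in PWK and 0.657 in NOD. No library at Cd300e held more than 5.62 tags of H3K4me3. With 2 libraries a group, libraries often stand apart without any effect, and the share over all promoters was not counted. The difference between these pairs of strains was not tested, and none of the 5 passed the F test over strains in limma.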

How the results depend on the processing

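Over 30 results, 132 alternatives kept all libraries or changed a setting. Of these, 99 kept the side of the threshold and, for counts, a value within 1.5 times. The same held in 420 of 445 fits without 1 library. Results past the threshold had to keep their direction too, and none reversed. For results that missed the threshold, a change of sign was not counted. Fold-rule rises and falls were counted together, so that a change of direction there would not show. The cause of the changes was not tested. With the replicate block the calls at promoters numbered 4011 in H3K27ac, 1271 in Pol II and 5029 in H3K4me3, and the differences between strains 74, 1 and 28, and counts of list members under the block stand beside their results. Paired by number, the H3K27ac shift of promoters relative to distal regions (-0.19) passed. Median-ratio scaling gave 734 calls in Pol II, 633 in H3K4me3 and 239 in H3K4me2, and H3K27ac with 24 h replicate 1 alone 665. A filter on low values gave 3184 in H3K4me3 and shifts of -0.11 in H3K4me3 and -0.14 in H3K4me2. The fold rule gave, in C57, 61 promoters with pseudocount 5 and 203 at 2-fold, in BALB 90 with no filter and 130 at 2-fold, in NOD 197 at 2-fold, in PWK 45 and 149, and in SPRET 23 and 101 with pseudocount 5 and at 2-fold. Equal-length peak lists gave promoter shares at 24 h of 43.6% (EGR2), 15.6% (STAT6), 9.65% (PPARg), 71.1% (PU.1) and 19% (C/EBPb), and peak centres within 250 bp 51.3%, 21.7%, 20.3%, 62.4% and 23.8%. Leaving out 1 library at a time gave 1208 to 3210 calls in H3K27ac, 351 to 542 in Pol II, 480 to 5314 in H3K4me3 and 6655 to 7877 in H3K4me2. Between strains it gave 0 to 1 in H3K4me3 and H3K4me2. H3K4me3 shifts ran from -0.57 to -0.39, and BALB promoters past the fold rule from 47 to 90. Low promoters rest on few reads, and ratios there have wide intervals.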

Other observations

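The median H3K27ac difference of promoters open at 24 h only was above that of promoters open in both conditions in 5 of 5 strains. The median of promoters open basally only was below that of promoters open in both in just 2 of the 5. Those open at 24 h only made up 6.48% to 14.6% of promoters by strain, and their median log2 difference ran from -0.35 to -0.12 in H3K27ac and -0.12 to 0.59 in Pol II. Promoters open in both conditions had medians of -0.59 to -0.17 and -0.18 to 0.53, and those open basally only of -0.56 to -0.19 and -0.18 to 0.57. In H3K4me2 the medians were -0.88 to -0.21 for those open at 24 h only, -0.90 to -0.26 for those open in both and -0.88 to -0.25 for those open basally only. CpG-rich promoters were 72.2% to 73.8% of those open in both, 51.9% to 66.3% of those open at 24 h only and 43.6% to 66.3% of those open basally only. EGR2 peaks at 24 h covered 71.1% of CpG-rich and 34.2% of CpG-poor promoters on average over the 5 strains, and STAT6 peaks 21.8% and 43.2%. PU.1 peaks covered 72.6% and 78.1%, PPARg 24% and 36.4% and C/EBPb 28.4% and 42%.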
